A study of Mus musculus with 6 samples.

Results

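The glycosyltransferases that start, extend, sialylate and fucosylate mucin-type and related glycans were followed as one gene family in mouse duodenum. Members were the gene rows whose symbol starts with St3gal, St6gal, St8sia, Fut, Galnt, B3gnt, B4galt, B3galt or Gcnt, together with C1galt1 and C1galt1c1. This symbol rule gave 77 of 23699 gene rows. By role they were 18 initiating enzymes (Galnt genes), 8 genes of core synthesis and branching, 22 chain-building genes, 20 sialyltransferases and 9 fucosyltransferase genes. The family was proposed because St3gal4 was very low in 1 library, so the St3gal4 values are a description. The gene stays in the fit and in the counts of members, and nothing is read from its own p-value.

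RNA came from the first 2 cm of duodenum of 6-week-old mice of mixed background, in 3 control and 3 mutant libraries. Control 1 was Nkx2.2flox/+ with Rosa26Tomato/+, control 2 was Rosa26Tomato/+ alone and control 3 was wild type. Mutants 1 and 3 carried Nkx2.2flox/SD, Villin-Cre/+ and Rosa26Tomato/+, and mutant 2 carried Nkx2.2flox/SD and Villin-Cre/+. The SD allele alters the NK2-specific domain of the transcription factor Nkx2.2, and Villin-Cre recombines the floxed copy in the intestinal epithelium, so other cells of the tissue kept flox/SD. Every mutant differed from every control in the Cre, the lost floxed copy and the SD allele together, and these cannot be told apart. Libraries of the same group differed in genotype or, for mutants 1 and 3, in the sex read from their RNA, and were taken as separate mice (n = 3 per group). In whole tissue, fewer cells of a type and less RNA per cell cannot be told apart.

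Mucin-type O-glycans begin when a GALNT enzyme places N-acetylgalactosamine (GalNAc) on serine or threonine. C1GALT1, which folds only with its chaperone C1GALT1C1, adds galactose to make core 1, and GCNT enzymes add N-acetylglucosamine branches. B3GNT, B4GALT and B3GALT enzymes then lengthen the chains, and sialyltransferases and fucosyltransferases cap them. In the gut such chains coat the mucus and the brush border. The symbol rule also takes in enzymes that act elsewhere, such as B3galtl (now B3glct), which acts on thrombospondin repeats, and Fut8, which puts fucose on the core of N-glycans. B3gnt9-ps, Galntl1, Galntl2 and Galntl4 are listed under older symbols and are now B3gnt9, Galnt16, Galnt15 and Galnt18. The older symbol B3gnt1 has been used for both B3gnt2 and B4gat1, and B3gnt2 is a separate member here.

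Levels are given as FPKM, fragments per kilobase of transcript and M (mega) mapped reads, so that genes can be compared per length. The libraries held 19.1 to 22.9 M reads, estimated from the deposited coverage. The enterocyte markers summed to between 22334 and 36854 FPKM in the 6 libraries, which fits the tissue label. Nkx2-2 stood at 1.07, 0.647 and 0.716 FPKM in the controls, numbered 1 to 3, against 0.564, 0.772 and 0.910 FPKM in the mutants, in the same order. A gene-level value does not show which allele was read. Xist was 0.037 FPKM in control 1 and 0.067 FPKM in mutant 1 and at least 17.1 FPKM in the others. The Y-linked Eif2s3y was 36.7 and 35.4 FPKM in those libraries, which are called the males below, and at most 0.084 FPKM in the 4 others, called the females. Sex was not named in the labels.

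The promoter sequences of St3gal4 and B3galt5 are shown because these are the well-expressed members that varied most between libraries. Each is the 250 bases before a RefSeq start on build GRCm38.p6, written 5′ to 3′ on the gene's strand, with capitals marking a match to the NK2-type motif TNAAGTG on either strand. St3gal4 lies at chr9:35116865-35117114 on the minus strand. The 3 B3galt5 starts lie on the plus strand at chr16:96235551-96235800, chr16:96273263-96273512 and chr16:96280782-96281031.
St3gal4: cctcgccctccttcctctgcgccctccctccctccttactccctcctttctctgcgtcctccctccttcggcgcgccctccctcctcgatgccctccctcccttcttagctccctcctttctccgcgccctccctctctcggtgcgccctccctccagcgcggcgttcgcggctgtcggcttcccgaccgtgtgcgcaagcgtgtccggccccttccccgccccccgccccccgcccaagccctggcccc
B3galt5 start 1: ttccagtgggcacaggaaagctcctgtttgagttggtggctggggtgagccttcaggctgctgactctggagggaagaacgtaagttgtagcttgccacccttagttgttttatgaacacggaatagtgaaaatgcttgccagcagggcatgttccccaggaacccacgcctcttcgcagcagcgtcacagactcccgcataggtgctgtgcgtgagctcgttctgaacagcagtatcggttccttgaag
B3galt5 start 2: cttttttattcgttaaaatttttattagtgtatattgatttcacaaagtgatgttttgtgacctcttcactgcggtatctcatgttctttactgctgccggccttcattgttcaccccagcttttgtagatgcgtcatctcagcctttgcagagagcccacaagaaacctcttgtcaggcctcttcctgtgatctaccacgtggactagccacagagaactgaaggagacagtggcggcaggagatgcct
B3galt5 start 3: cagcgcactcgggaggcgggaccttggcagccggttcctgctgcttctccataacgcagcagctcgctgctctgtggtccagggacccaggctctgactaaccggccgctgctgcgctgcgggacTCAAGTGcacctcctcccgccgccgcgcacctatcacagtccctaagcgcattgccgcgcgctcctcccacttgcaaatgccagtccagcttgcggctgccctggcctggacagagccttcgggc
The St3gal4 window was 72.8% G or C, against a median of 52.4% over all 32851 starts in the table, and held no match to the motif. The windows of B3galt5 were 54.0%, 45.2% and 67.2% G or C, and only start 3 held a match. Over all starts 10.1% held TNAAGTG, against 5 of 70 starts (7.14%) of the 52 members with an entry. The caudal-type motif TTTATNG was in 9.81% of all starts and 3 member starts (4.29%), and TATAAA was in 12.4% of all starts and 2 member starts (2.86%). Both strands were searched, and the motifs spelled here do not contain one another. A match describes letters in a window and is not a binding site.

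Most of the family was expressed in the duodenum, and no member passed the test between mutants and controls. Of the 77 members, 51 had a mean of at least 1 FPKM and 29 of at least 10 FPKM. Galnt14, Galntl5, Fut4-ps1 and St8sia5 were listed at 0 in every library. Galnt6 had no successful estimate in controls 2 and 3 and was not tested. Of the other 76 members, 62 passed the filter on low values, an average of 0.2 FPKM or more across all 6 libraries, and 14 did not. No member passed limma at an adjusted p under 0.05 (0 of 62, lowest adjusted p = 1.0), where 0.0% of the 14642 genes tested passed. At an unadjusted p under 0.05 limma gave 2 members lower in mutants, C1galt1 and B3galtl, and 0 higher. The same shares over all genes were 0.861% lower and 1.98% higher (2.84% in all). The median log2 change of the 62, on the log2(FPKM + 0.1) scale and mutant minus control, was −0.03, against 0.00 (0.004) over all genes. In 56 of 62 members (90.3%) it lay within 0.3 of 0, against 88.3% of all genes. On that log2 scale the mutant mean was higher for 27 members and lower for 35. A mean of FPKM can go the other way.

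**Figure D1:**
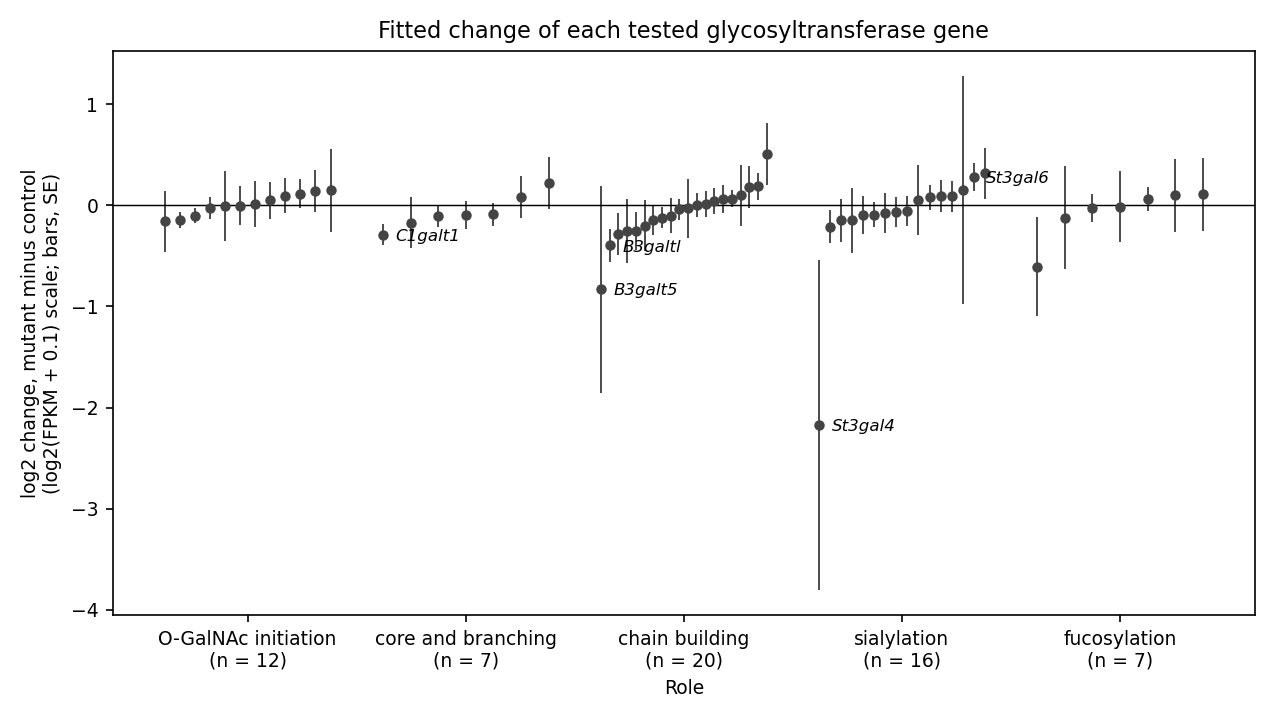
Log2 change of each of the 62 tested members (mutant minus control, log2(FPKM + 0.1) scale), grouped by role, with bars of 1 standard error. Most points lie within 0.3 of 0, and St3gal4 lies farthest out at −2.17 with a standard error of 1.63.

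Among the initiating enzymes, 12 of 18 were tested, with log2 changes from −0.16 to 0.15. On the log2 scale 6 mutant means were higher and 6 lower. Galnt1, the most abundant, was at 70.0, 71.1 and 67.7 FPKM in the controls, against 62.1, 61.1 and 65.6 FPKM in the mutants. Every mutant lay below every control, with a log2 change of −0.15 (SE 0.075) and an adjusted p of 1.0 in limma. Galnt10, which acts on peptides that already carry GalNAc, was at 33.3, 33.1 and 31.7 FPKM in the controls, against 30.8, 30.2 and 30.4 FPKM in the mutants. Its groups did not overlap either, although the log2 change was only −0.10 (SE 0.075). Galnt1 and Galnt10 belong to 3 members whose mutants were all below the controls, the third being C1galt1. B3gnt4 was the 1 member whose mutants were all above, at 0.128 to 0.315 FPKM in the controls, against 0.346 to 0.401 FPKM in the mutants, a level of 3 to 11 reads. Over all genes 3.43% had all mutants below, 4.14% all above and 7.57% either. Galnt6 was at 51.8 FPKM in control 1 and at 54.2, 46.9 and 48.4 FPKM in mutants 1 to 3.

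In other Galnt genes the libraries did not divide by genotype. Galnt7, another enzyme of the follow-up type, was at 34.5, 14.8 and 16.9 FPKM in the controls, against 28.3, 19.3 and 15.6 FPKM in the mutants, a log2 change of −0.01 (SE 0.35). Galnt4 was at 28.0, 17.7 and 20.4 FPKM in the controls, against 25.4, 22.9 and 19.2 FPKM in the mutants. In both genes control 1 was highest, mutant 1 next and then mutant 2, so the groups overlapped. Galnt3, Galnt5 and Galnt12 had the same top 3 libraries in the same order. In all 7 of 62 tested members did so, those 5 Galnt genes with B4galt4 and Fut11, against 3.52% of all genes tested. This order was picked after the values were seen. Brunner's glands, the mucus glands of the proximal duodenum, make Tff2 and Muc6, and these markers had the same 3 highest libraries. Tff2 was at 4468, 464 and 119 FPKM in the controls, against 4535, 1308 and 346 FPKM in the mutants. Muc6, the gland mucin, was at 79.7, 7.19 and 1.76 FPKM in the controls, against 63.8, 24.3 and 8.30 FPKM in the mutants. A4gnt, which caps gland mucin glycans with N-acetylglucosamine, was at 18.3, 2.32 and 1.11 FPKM in the controls, against 17.8, 6.19 and 2.06 FPKM in the mutants. The summed level of the 4 listed gland markers was 125 to 4558 FPKM in the controls, against 360 to 4611 FPKM in the mutants, with Bpifb1 listed at 0 throughout. The 6 listed stomach markers summed to 9.67, 1.44 and 1.67 FPKM in the controls, against 10.2, 5.43 and 3.70 FPKM in the mutants. The same 3 libraries were highest for this sum, which followed Pgc. Pgc was at 7.40, 0.825 and 0.841 FPKM in the controls, against 8.25, 2.95 and 1.15 FPKM in the mutants. Tff1 was instead highest in mutants 2 and 3, at 2.38 and 2.20 FPKM. Gif, Gkn1, Gkn2 and Muc5ac, at most 0.742 FPKM, had other orders, so the stomach markers did not share the pattern as a set. Control 1 and mutant 1 are also the males. Of the 62 members 16 had both males above all females, against 20.9% of all genes. The part of gland content, of stomach tissue or of sex in the Galnt levels was not tested.

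**Figure D2:**
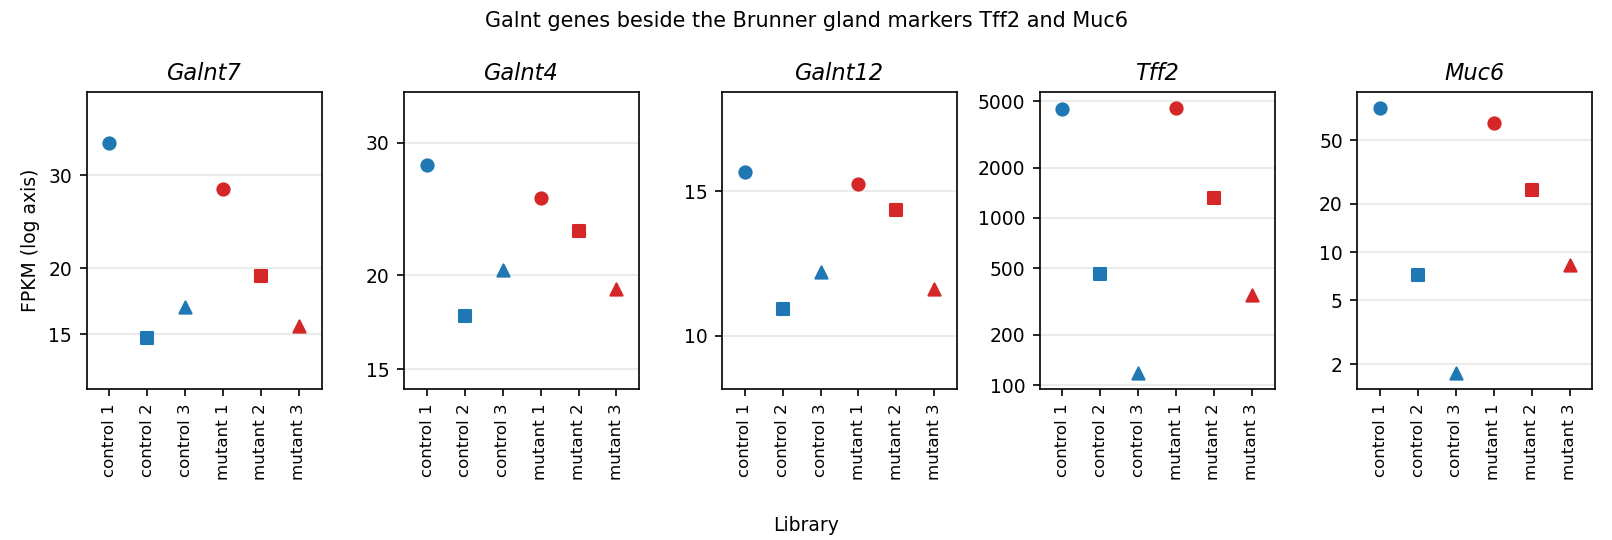
Levels in FPKM (log axis) of Galnt genes and of the Brunner's gland markers Tff2 and Muc6 in each of the 6 libraries. Control 1 and mutant 1 are the 2 highest libraries for each gene, and Tff2 ranges from 119 to 4535 FPKM.

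In core synthesis and branching, 7 of 8 members were tested, with 2 higher and 5 lower mutant means on the log2 scale. C1galt1, the core 1 synthase, was at 13.7, 12.9 and 12.2 FPKM in the controls, against 11.1, 11.2 and 9.46 FPKM in the mutants, from 393 to 542 reads per library. Every mutant was below every control, by a log2 change of −0.29 (SE 0.11), or 0.818-fold, with an unadjusted p of 0.028 and an adjusted p of 1.0 in limma. The log2 change was −0.29 with a term for sex and −0.29 among the 4 females, and lay between −0.33 and −0.21 when each library was left out in turn. The unadjusted p of C1galt1 in limma was 0.0754 without control 1, 0.0627 without control 2, 0.105 without mutant 3 and 0.0779 among the females. C1galt1c1, its chaperone, was at 49.2, 44.5 and 40.4 FPKM in the controls, against 44.0, 42.2 and 37.99 FPKM in the mutants, and the groups overlapped. Gcnt3, a branching enzyme of mucus-secreting epithelia, was at 25.9, 22.3 and 31.7 FPKM in the controls, against 21.8, 44.3 and 30.0 FPKM in the mutants. Mutant 2 stood highest for Gcnt3 and mutant 1 lowest, with a log2 change of 0.22 (SE 0.26). Gcnt2, which makes I-antigen branches, was at 13.3, 14.5 and 15.9 FPKM in the controls, against 12.7, 15.1 and 13.3 FPKM in the mutants. Gcnt4 was at 15.0, 10.9 and 11.5 FPKM in the controls, against 12.2, 11.0 and 11.4 FPKM in the mutants. Both genes had overlapping groups. B3gnt6, which makes core 3, averaged 0.390 FPKM and Gcnt1 0.923 FPKM.

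Of the 22 chain-building genes 20 were tested, with a median log2 change of −0.04 (−0.035). Mutant means on the log2 scale were higher for 9 and lower for 11. B4galt1, the main galactosyltransferase of N-acetyllactosamine chains, was at 73.9, 59.0 and 51.7 FPKM in the controls, against 57.8, 67.9 and 46.5 FPKM in the mutants. B3gnt3, which extends core 1, was at 66.6, 52.5 and 57.5 FPKM in the controls, against 64.9, 54.8 and 56.6 FPKM in the mutants. B3gnt7 was at 49.2, 31.6 and 20.2 FPKM in the controls, against 27.0, 32.6 and 20.9 FPKM in the mutants. For all these the groups overlapped and the spread among controls exceeded the difference of the means. B4galt6, a lactosylceramide synthase, was at 22.1, 32.0 and 33.4 FPKM in the controls, against 25.5, 35.8 and 38.1 FPKM in the mutants, with the males lowest. Its log2 change was 0.19 (SE 0.21). With a term for sex the change was 0.19 (SE 0.068), with an unadjusted p of 0.0334 and an adjusted p of 0.996 in limma. Among the 4 females the change was 0.17. B4galt5, Fut4, Gcnt2 and St8sia1 shared the order of B4galt6, males below all females, which makes 5 of 62 members against 6.41% of all genes. B3galtl was at 8.73, 7.64 and 10.1 FPKM in the controls, against 5.47, 6.96 and 7.68 FPKM in the mutants, a log2 change of −0.40 (SE 0.16) with an unadjusted p of 0.044 in limma. Its groups overlapped, since mutant 3 was slightly above control 2. The log2 change of B3galtl was −0.26 without mutant 1 and −0.26 among the females. In neither fit, nor without control 1, control 3 or mutant 2, was its unadjusted p in limma under 0.05. In the authors' deposited table B3galtl was the 1 member of 77 at an unadjusted p under 0.05 (p = 0.0468, fold 0.761), where 1.12% of 18621 genes were, and no member passed after adjustment (0.0269% of genes did).

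B3galt5, which builds type 1 chains, varied more than any other chain-building gene and was singled out after its values were seen. It was at 39.5, 15.8 and 11.7 FPKM in the controls, against 5.38, 62.3 and 3.78 FPKM in the mutants, from 407 to 6430 reads. Mutant 2 was highest and mutants 1 and 3 lowest, so the mutants enclosed the controls, and the log2 change was −0.83 (SE 1.02). The mean FPKM went the other way, at 22.3 in controls and 23.8 in mutants, and the authors' deposited fold was 1.09. Without mutant 2 the log2 change was −2.08 (SE 0.495), with an unadjusted p of 0.005 and an adjusted p of 0.999 in limma. All of its reads were assigned to the isoform NM_033149 in every library. Fut2, the secretor enzyme that puts terminal fucose on gut glycans, was at 9.85, 5.64 and 3.57 FPKM in the controls, against 2.98, 10.7 and 4.77 FPKM in the mutants. In B3galt5, Fut2 and B3gnt5 mutant 2 was highest, control 1 next and then control 2, an order seen in 3 of 62 members and 1.43% of all genes. Duox2, an oxidase of the gut surface, was at 3.83, 1.16 and 0.438 FPKM in the controls, against 0.271, 5.22 and 0.507 FPKM in the mutants. Reg3g, a secreted antibacterial lectin, was at 13096, 10144 and 6448 FPKM in the controls, against 2232, 10398 and 1276 FPKM in the mutants. Reg3g was lowest in mutants 3 and 1, as B3galt5 was, and Duox2 was lowest in mutant 1 and control 3. These genes were set beside B3galt5 after the values were seen, and any link was not tested.

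**Figure D3:**
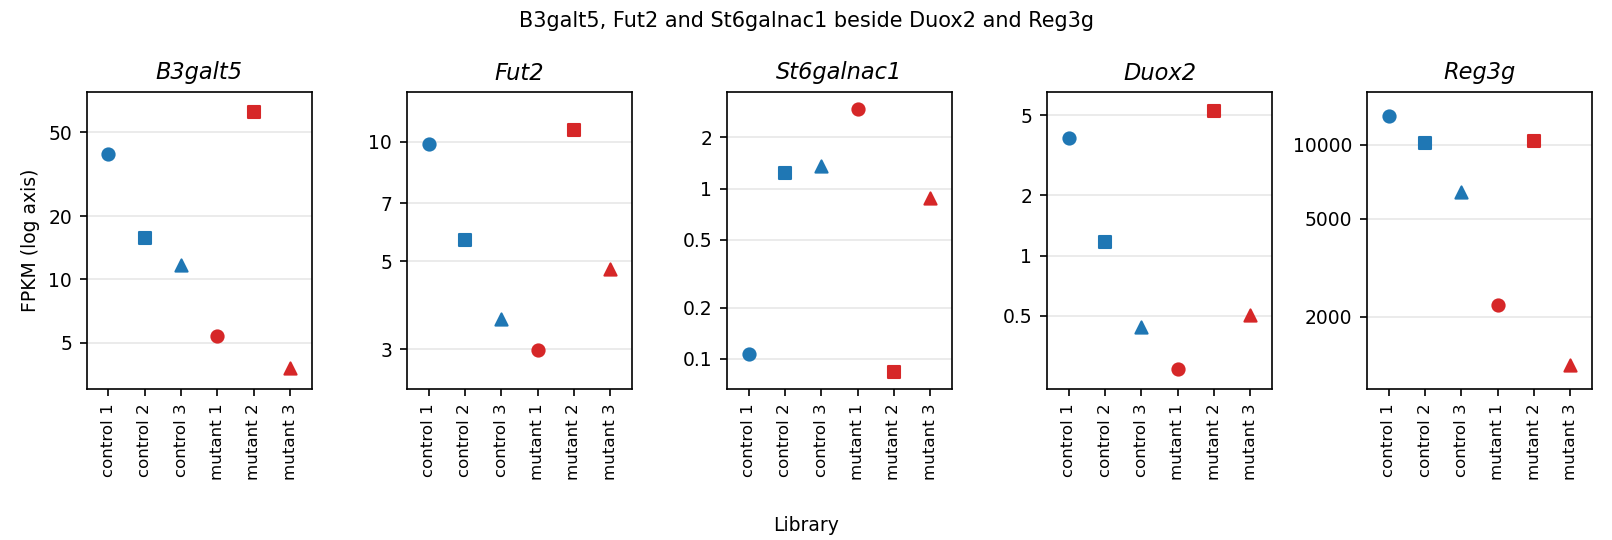
Levels in FPKM (log axis) of B3galt5, Fut2, St6galnac1, Duox2 and Reg3g in each of the 6 libraries. B3galt5 spans 3.78 to 62.3 FPKM with both ends in the mutant group, and mutant 2 and control 1 are highest for B3galt5, Fut2 and Duox2.

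St3gal4, which sialylates terminal galactose, was the most abundant member in 5 of the 6 libraries and nearly missing from the remaining one. It was at 359, 272 and 269 FPKM in the controls, against 3.11, 309.9 and 290.1 FPKM in the mutants, or 9700 to 13959 reads in 5 libraries and 108 reads in mutant 1. Mutant 1 was 86.4-fold below the lowest of the others and 93.3-fold below their median. Mutants 2 and 3 averaged 300.02 FPKM, against 299.7 ± 51.0 (SD, n = 3) in controls, so the group difference rested on 1 library. The log2 change was −2.17 (SE 1.63) with mutant 1 and 0.01 without it. Its share of all sialyltransferase FPKM was 72.1%, 71.6% and 67.5% in controls, 71.8% and 66.5% in mutants 2 and 3, and 2.0% in mutant 1. In the authors' deposited table the group means of normalized counts were 11520 and 7817 and the fold was 0.679, with an adjusted p of 1.

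On the start side of St3gal4, the genes at or above 1 FPKM were not low in mutant 1. On build mm9 the gene lies at chr9:34854164-34924395 on the minus strand. Within 1 Mb, 10 genes averaged 0.2 FPKM or more. All lay on the side of the gene's start, so the other side is not covered. The 9 at or above 1 FPKM were at 0.907 to 1.20 times the median of the other libraries in mutant 1. The remaining one, 4930581F22Rik, overlaps the start of St3gal4 and was at 0.215 FPKM in mutant 1 and 0.489 to 0.915 FPKM in the others. Control 1, the other male, and mutant 3, which has the same genotype label as mutant 1, were not low for St3gal4. The cause of the low St3gal4 value in mutant 1 was not tested. Over the table, 2 of 5767 genes with at least 10 FPKM in the 5 other libraries were at least 50-fold below all of them in mutant 1. Control 1 had 1 such gene (Snora28), control 2 had 1 (Snora52) and the other libraries had 0. The second gene in mutant 1 was Lgals6, a galectin listed at 0.0001 FPKM there and at 49.3 to 183.9 FPKM elsewhere. Lgals6 has a near-identical neighbour, Lgals4 (2200 to 2539 FPKM), so its value may depend on how shared reads were split and is uncertain. The cause of the Lgals6 value was not tested. Lgals6 was named after its value was seen.

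**Figure D4:**
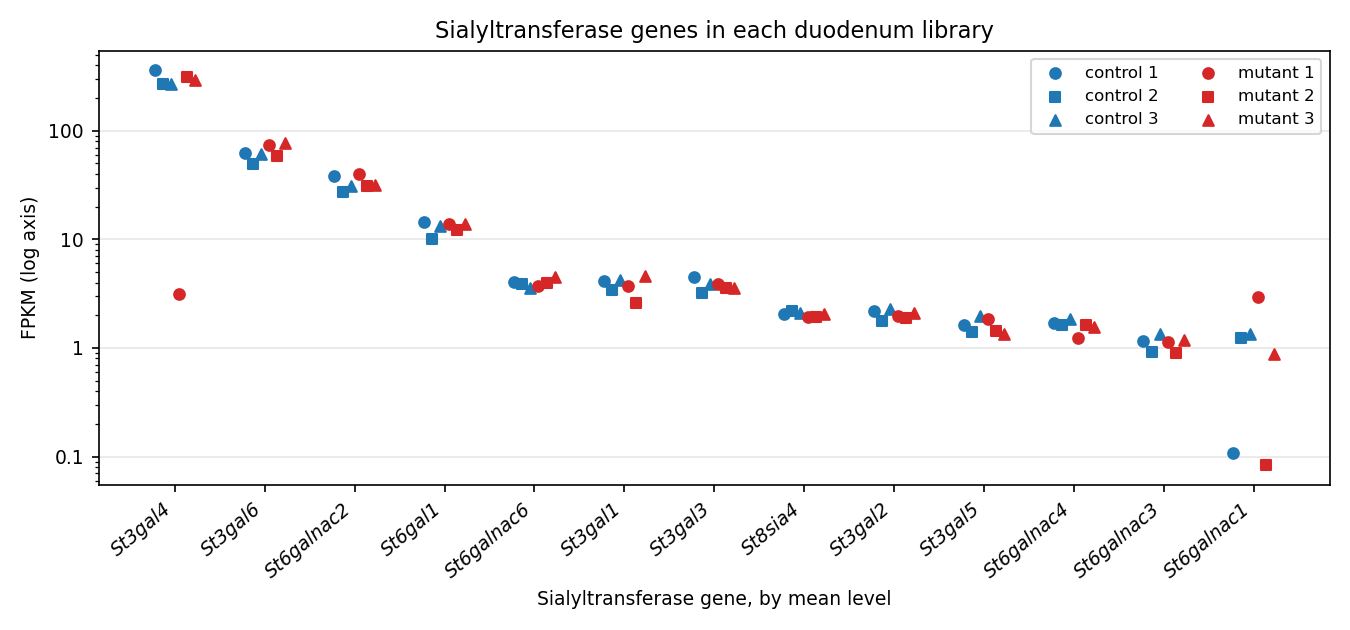
Levels in FPKM (log axis) of the 13 sialyltransferases with a mean of at least 1 FPKM in each library, with controls and mutants in different colours. St3gal4 is at 269 to 359 FPKM in 5 libraries and at 3.11 FPKM in mutant 1, while St3gal6, St6galnac2 and St6gal1 stay within 1.6-fold.

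The other sialyltransferases in mutant 1 were not low as a group. Their summed level, without St3gal4, was 151.9 FPKM in mutant 1, against 107.6 to 138.6 FPKM in the controls, against 121.6 and 146.1 FPKM in mutants 2 and 3. St3gal6, an enzyme with the same kind of acceptor as St3gal4, was at 62.1, 49.4 and 60.5 FPKM in the controls, against 73.8, 58.6 and 77.4 FPKM in the mutants. Mutants 1 and 3 were above all controls and mutant 2 was not, with a log2 change of 0.28 (SE 0.14) and an adjusted p of 1.0 in limma. St6galnac2, which sialylates the GalNAc of core O-glycans, was at 38.1, 27.2 and 31.2 FPKM in the controls, against 40.2, 31.0 and 31.4 FPKM in the mutants. St6gal1, the main sialyltransferase of N-glycans in many tissues, was at 14.5, 9.97 and 13.4 FPKM in the controls, against 13.9, 12.1 and 13.8 FPKM in the mutants. For both the groups overlapped. St6galnac1, which makes the sialyl-Tn antigen, was at 0.107, 1.24 and 1.36 FPKM in the controls, against 2.95, 0.0835 and 0.880 FPKM in the mutants. Mutant 1 was highest, 2.17-fold above the next library, and control 1 and mutant 2 were lowest, with only 4 to 123 reads per library. Of the 16 tested sialyltransferases 7 had higher and 9 lower mutant means on the log2 scale. St3gal1, St3gal2, St3gal3, St3gal5, St6galnac3, St6galnac4, St6galnac6 and St8sia4 had means between 1.10 and 3.94 FPKM and differed by at most 1.75-fold between their highest and lowest libraries.

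Among the fucosyltransferases 7 of 9 were tested, 3 with higher and 4 with lower mutant means on the log2 scale. Fut8 was at 43.5, 37.4 and 47.4 FPKM in the controls, against 46.1, 48.0 and 39.7 FPKM in the mutants, a log2 change of 0.06 (SE 0.12). Fut4, which fucosylates inner N-acetylglucosamine to form Lewis x, was at 16.1, 39.6 and 43.3 FPKM in the controls, against 27.4, 32.6 and 38.9 FPKM in the mutants. Control 1 and mutant 1, the males, were lowest, and the group means were 33.0 and 33.0 FPKM. Fut2 differed between its group means, 6.35 ± 3.20 and 6.15 ± 4.03 FPKM (SD, n = 3), by less than the spread within either group. Fut11 was at 2.95, 2.33 and 2.44 FPKM in the controls, against 2.69, 2.52 and 2.34 FPKM in the mutants. Fut1, the related H-antigen enzyme, averaged 0.373 FPKM, and Fut9 averaged 0.0065 FPKM.

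The 50 estimated members at or above 1 FPKM had a median coefficient of variation of 13.8%, against 11.5% for all genes at that level. Of these, 41 differed by less than 2-fold between the highest and the lowest library, with a median of 1.46-fold. At least 5-fold was reached by 3 members, St3gal4 (115-fold), St6galnac1 (35.3-fold) and B3galt5 (16.5-fold), against 1.71% of 12307 genes. A single library at least 2-fold from all others was seen for 2 members, St3gal4 and St6galnac1, against 1.46%. St3gal4 is in both counts and is the value for which the family was proposed, so nothing is read from these shares. In none of these did the libraries divide by genotype.

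The members had 108 isoforms. Of the 75 tested, none passed limma at an adjusted p under 0.05 (0.0279% of 17922 isoforms did). At an unadjusted p under 0.05 there was 1, the C1galt1 isoform NM_052993, lower in mutants, against 3.53% of all isoforms. St6gal1 was carried by NM_001252506, at 85.8% to 98.4% of its FPKM, and Gcnt2 by NM_023887, at 69.4% to 84.8%.

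Genes that supply, carry, remove or bind the same glycans were followed in a list of 88, of which 75 were tested. None passed limma at an adjusted p under 0.05 (0.0% of all genes) and 0 had an unadjusted p under 0.05 (2.84% of all genes). The median log2 change was 0.02, with 39 mutant means higher and 36 lower on the log2 scale. Gmds, an enzyme of GDP-fucose supply, was at 221 ± 34.6 FPKM in the controls, against 188 ± 74.7 FPKM in the mutants (SD, n = 3). Cmas, which activates sialic acid, was at 97.2 ± 26.7 and 107 ± 13.0 FPKM. B4galnt2, which adds GalNAc to sialylated chains, was at 253 ± 28.8 and 264 ± 6.39 FPKM, and B4galnt1 was at 146 ± 37.8 and 144 ± 43.7 FPKM. The lysosomal enzymes Fuca1 and Hexa were at 106 ± 13.7 and 99.0 ± 6.01 FPKM and at 56.3 ± 8.57 and 57.3 ± 4.33 FPKM. For all of these the difference was smaller than the larger of the group SDs. Of the 12 listed mucins 9 were estimated and 6 tested. Muc2, Muc3 and Muc16 were not estimated, so nothing is said of them. Among those tested, Muc13, a brush-border mucin, was at 1850 ± 687 and 1493 ± 351 FPKM, and Muc6 at 29.5 ± 43.5 and 32.1 ± 28.6 FPKM. The lectins Lgals4 and Itln1 were at 2280 ± 76.6 and 2392 ± 149 FPKM and at 1676 ± 549 and 1698 ± 86.0 FPKM. Of the N-glycan branching genes, Mgat4a was at 61.5 ± 4.04 and 65.7 ± 1.43 FPKM, with every mutant above every control, and Mgat2 at 44.7 ± 2.28 and 39.9 ± 4.41 FPKM, with overlap.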

How the data were processed

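RNA-seq tables for 3 control and 3 mutant libraries were used, with members and lists chosen with earlier results of these data known. Per the submitters' processing notes, the tools were CASAVA 1.8.2, TopHat, Cufflinks and DESeq, and the build was mm9. No source used here gives their settings. The authors deposited FPKM per gene and isoform, with isoform coverage (an unscaled signal), per the file headers. The authors' deposited comparison gives per gene a p-value, a ratio of group means (fold) and its log2. Rows repeating a symbol (464) and 209 symbols with no successful estimate were left out, which left 23026. Depth was estimated from coverage, assuming reads of 101 bases and lengths less 210.3 bases (82.9% to 84.2% of values came out whole within 0.05). Read numbers are therefore estimates, and PCR copies among them cannot be removed.

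The model was limma with trend (version 3.58.1, R 4.3.3) on log2(FPKM + 0.1), keeping genes that averaged 0.2 FPKM or more. Tests were two-sided, adjusted by Benjamini-Hochberg over all genes kept, with 0.05 as the threshold. A fold change on this scale understates low genes. The fit was also run on simulated data with independent noise in each gene and library and no sex difference. Nothing is read from that run. Named members were St3gal4, the 4 most abundant tested per role, members without group overlap at an unadjusted p under 0.05, and members at or above 1 FPKM with a library 2-fold from all others. In each related list the 2 most abundant tested genes were named. B3gnt4, Galnt6, B3galt5, B3galtl, B4galt5 and other genes outside this rule were named after their values were seen. Alternatives were other pseudocounts, filters, normalization, weights, a replicate block and leaving out each library, with a sex term and females alone added after seeing the data. No 2 libraries held identical values.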

Additional observations from a re-analysis of the deposited data

How the results depend on the processing

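No member or related gene passed an adjusted p under 0.05 in limma under any of the 16 other settings. No member isoform did under the 3 tried for isoforms (pseudocount 1, a mean of at least 1 FPKM and no filter). Members at an unadjusted p under 0.05, 2 at first, numbered 1 with array weights, 1 without the trend, 4 with the replicate block and 0 among the 4 females. They numbered 0 to 3 when each library was left out, with 0 without control 1, and 1 without control 3, mutant 1 or mutant 3. With a sex term limma gave an unadjusted p of 0.0215 for C1galt1 and 0.0376 for B3galtl, both lower in mutants. It gave 0.0334 for B4galt6, higher in mutants, and no other tested member was under 0.05. With the replicate block limma gave an unadjusted p of 0.006 for St3gal6 (adjusted p 0.822) and 0.0281 for B4galt6, both higher in mutants. For C1galt1 and B3galtl, both lower, it gave 0.0121 and 0.0239. Whether the replicate numbers pair the libraries was not tested. Same-numbered libraries deviated together with r of 0.211, 0.053 and 0.221, and differently numbered ones with r from −0.263 to 0.064. Control 2 correlated best with mutant 3 (0.064), and control 1 and mutant 1 are also the males. Over all genes tested, 1 passed the adjusted threshold with the block, 3 without control 3, and 1 each without control 1, control 2, mutant 1 or mutant 3.

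For St3gal4 the log2 change ran from −3.28 to 0.01 (0.014) when a library was left out, reversing only without mutant 1, and was 0.15 among the 4 females. Of 24 other members followed under 16 settings, 8 kept their sign in all, and 38 of 384 values reversed with 0 past the threshold. Quantile normalization gave B3gnt3 −0.02 (−0.016), and array weights gave Fut2 0.02 (0.021) and St6galnac1 −0.16 (−0.161). Among the females B3galt5 was 0.18 (0.185), B3gnt7 0.04 (0.045), B4galt1 0.03 (0.025), Fut11 0.02 (0.024), Fut2 0.66, Fut4 −0.22, Galnt7 0.13, Gcnt4 0.005 and St6galnac1 −1.72. Leaving out 1 library gave ranges of −0.078 to 0.093 for B3gnt3, −0.577 to 0.062 for B3gnt7, −0.23 to 0.042 for B4galt1, −0.003 to 0.362 for B4galt6, −0.094 to 0.071 for Fut11, −0.617 to 0.288 for Fut2, −0.343 to 0.367 for Fut4, −0.03 to 0.144 for Fut8 and −0.096 to 0.235 for Galnt4. They were −0.241 to 0.367 for Galnt7, −0.044 to 0.466 for Gcnt3, −0.185 to 0.046 for Gcnt4, −0.068 to 0.198 for St6gal1, −0.801 to 1.226 for St6galnac1 and −0.031 to 0.219 for St6galnac2. B3galt5 ran from −2.08 to −0.08 (−0.078), C1galt1 from −0.33 to −0.21 and B3galtl from −0.50 to −0.26. The unadjusted p of B3galtl was 0.0588 with array weights, 0.0563 without the trend, 0.0532 with quantile normalization and 0.052 with no filter. The cause of these differences between settings was not tested. Depth limits B3gnt4, St6galnac1 and Fut7, which had few reads in some libraries.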
